A study of Homo sapiens with 24 samples.

Results

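MIAPACA2 and PSN1 are established human cell lines grown from pancreatic adenocarcinoma, and their untreated libraries are compared here over all genes. The comparison takes 8 of the 24 libraries of the study, chosen by their labels: 4 vehicle libraries of MIAPACA2 and 4 vehicle libraries of PSN1. Both lines had received DMSO, the solvent control, and were harvested at day 6. The study asked how AM-9747, an inhibitor of the arginine methyltransferase PRMT5 that acts together with methylthioadenosine, changes expression in pancreatic cancer lines without the enzyme MTAP. Its treated libraries (4 of MIAPACA2 at 150 nM and 4 of PSN1 at 100 nM) are used below only to ask whether a line difference was also present there, and the vehicle libraries of the third line, BXPC3, only as a further level. All libraries carry the genotype label WT, while the series describes the lines as deleted for MTAP. Each line is 1 established line, so a difference between MIAPACA2 and PSN1 is a difference between these 2 cultures and not between classes of tumor. The labels do not say whether the 4 replicates of a line came from separate cultures, so p-values measure the spread between these libraries, which may be technical.

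Pancreatic adenocarcinoma cells range from a classical state, with gut-like epithelial genes such as mucins, trefoil factors and the transcription factor GATA6, to a basal or mesenchymal state in which these genes are low and vimentin is high. RAS proteins signal through the MAPK kinases, and the DUSP phosphatases and SPRY proteins that this pathway induces dampen it in turn. SMAD4 carries the TGF-beta signal into the nucleus, and MTAP, which removes methylthioadenosine, lies next to CDKN2A and CDKN2B on 9p21.

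The promoters of genes that stood high in one line (in CPM, the counts of a gene per M counts of the TMM-scaled library total) and at or near 0 counts in the other are shown, 2 for each line, taken by level among the protein-coding genes confined to that line that have an entry in the promoter table. MUC5AC and CST1, described below, stood above PRSS2 in PSN1 and are not shown. Each is the 250 bases before the RefSeq start (GRCh38.p14, read 5′ to 3′ on the gene's strand), and capitals mark TATAA on either strand. KLK6 (chr19:50969592-50969841, minus strand) and its neighbor KLK5 (chr19:50953039-50953288, minus strand), both secreted serine proteases, were high in MIAPACA2. PTGS2 (chr1:186680424-186680673, minus strand), the inducible cyclooxygenase of prostaglandin synthesis, and PRSS2 (chr7:142770720-142770969, plus strand), a trypsinogen, were high in PSN1.
KLK6: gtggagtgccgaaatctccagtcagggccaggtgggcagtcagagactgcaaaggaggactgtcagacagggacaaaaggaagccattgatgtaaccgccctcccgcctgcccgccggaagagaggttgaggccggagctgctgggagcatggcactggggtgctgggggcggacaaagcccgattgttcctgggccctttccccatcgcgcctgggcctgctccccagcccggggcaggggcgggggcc
KLK5: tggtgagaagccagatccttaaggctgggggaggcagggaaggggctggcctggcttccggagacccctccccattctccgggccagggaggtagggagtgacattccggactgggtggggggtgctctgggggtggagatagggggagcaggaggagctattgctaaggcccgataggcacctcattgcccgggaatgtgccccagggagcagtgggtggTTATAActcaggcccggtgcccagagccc
PTGS2: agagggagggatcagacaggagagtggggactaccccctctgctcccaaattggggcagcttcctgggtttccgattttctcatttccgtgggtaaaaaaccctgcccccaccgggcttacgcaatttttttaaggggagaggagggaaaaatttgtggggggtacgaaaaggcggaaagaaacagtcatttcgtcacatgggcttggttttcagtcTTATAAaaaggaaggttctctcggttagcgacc
PRSS2: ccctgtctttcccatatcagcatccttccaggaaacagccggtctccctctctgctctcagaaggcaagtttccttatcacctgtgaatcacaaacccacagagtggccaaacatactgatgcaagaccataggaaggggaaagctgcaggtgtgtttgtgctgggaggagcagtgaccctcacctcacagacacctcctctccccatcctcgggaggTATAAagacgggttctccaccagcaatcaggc
TATAA begins 28 bases before the start of KLK5 and 32 bases before that of PTGS2 and of PRSS2, while the KLK6 window holds none. The KLK6 window holds 12 CG dinucleotides at 66.8% G and C, and the PRSS2 window 3 CG dinucleotides at 53.6%. Over whole sets, 6.06% of the 66 promoters found for protein-coding genes confined to MIAPACA2 by the rule below and 23.8% of the 227 found for those confined to PSN1 held TATAA, beside 11% of the 10698 promoters of the protein-coding genes tested and 18.9% of all 35116 promoters in the table. The motif TGACTCA, on either strand, stood in 3.03% of the windows confined to MIAPACA2 and in 6.17% of those confined to PSN1, beside 2.65% of those tested and 4.2% of all. These are counts of letters in a window, given as a description without a test.

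The lines differed over much of the transcriptome. Of 18107 genes tested, 8606 (47.5%) passed an adjusted p of 0.05, 4358 of them (24.1%) higher and 4248 (23.5%) lower in MIAPACA2, and 7333 (40.5%) passed and were at least 2-fold apart. Without scaling of the library totals the split was 5678 higher and 3256 lower, and the median log2 fold change of all genes moved to 0.456, against 0.09 with TMM scaling, so small differences depend on the scaling. Among protein-coding genes 3960 were higher and 3146 lower of 13604, with a median of 0.25, while among lincRNA genes 118 were higher and 336 lower of 1217, with a median of -0.76.

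The PSN1 vehicle libraries were less alike than those of MIAPACA2, and every result below rests on them. The biological coefficient of variation was 31.8% over the MIAPACA2 and 67.1% over the PSN1 vehicle libraries. Total counts were 35.3 ± 5.22 M per library in MIAPACA2 and 30.8 ± 6.73 M in PSN1 (SD, n = 4 each). The mitochondrial genome took 17, 6.58, 10.3 and 20.5% of the counts of the 4 MIAPACA2 libraries, and 17.4, 43.8, 37.6 and 33.5% of those of PSN1, so that 3 PSN1 libraries lay above every MIAPACA2 library. PSN1 replicate 3 had the fewest counts (22.4 M) and the fewest genes detected (16646). The MIAPACA2 libraries detected 21183 to 23640 genes, and the other PSN1 libraries 19398 to 24738. With replicate 3 left out, a choice made after seeing the data, 9655 genes passed. With replicate 1, the PSN1 library with the lowest mitochondrial share, left out, 10098 passed. With the mitochondrial share as a covariate 4501 passed, 1800 higher and 2701 lower. Because the share itself differed between the lines, that fit cannot fully separate line from share, and the cause of lost calls was not tested. List counts below were repeated in these ways. They are to be read beside the 24.1% higher and 23.5% lower of all genes tested. In any list, a member without a count in one line passes the filter only through the other, which fixes its direction.

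The epithelial markers set for the label gave a mixed picture in both lines. KRT8, a keratin of simple epithelia, stood at 681 ± 26.7 CPM in MIAPACA2 and 419 ± 55.4 in PSN1 (SD, n = 4 each, as for every mean below), and its partner KRT18 at 730 ± 141 and 965 ± 215 CPM in the same order. The ductal keratin KRT7 was at 0.125, 0.0824, 0.0431 and 0.135 CPM in the MIAPACA2 libraries, against 383, 250, 304 and 306 CPM in PSN1. KRT19 was lower in MIAPACA2 as well, at 23.7 ± 2.04 CPM against 168 ± 14.3 in PSN1, a log2 fold change of -2.83 ± 0.18 (SE, adjusted p 1.55e-06). CDH1, which encodes the junction protein E-cadherin, averaged 0.13 CPM in MIAPACA2 and 0.625 in PSN1, too low to be tested, while BXPC3 stood at 581 CPM. EPCAM, an epithelial adhesion molecule, was at 0.0431 ± 0.0534 CPM in MIAPACA2, 9.06 ± 4.49 in PSN1 and 115 in BXPC3. Both lines thus carried the simple keratins with little or no CDH1, and MIAPACA2 also lacked KRT7 and EPCAM. In bulk samples fewer cells with a transcript and less transcript per cell cannot be told apart.

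**Figure D1:**
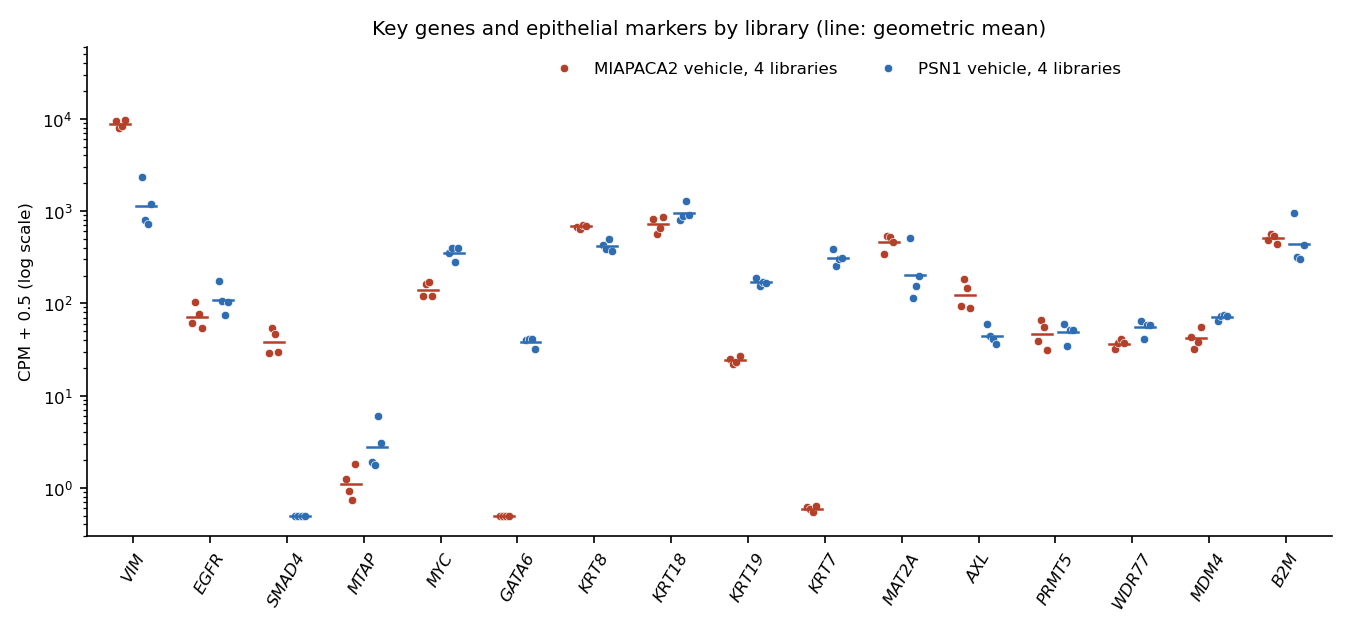
CPM (plus 0.5, log axis) of the key genes and epithelial keratins in each of the 4 MIAPACA2 and 4 PSN1 vehicle libraries, with the geometric mean as a line. SMAD4 is at 0 counts in every PSN1 library and GATA6 in every MIAPACA2 library, while PRMT5 and B2M overlap between the lines.

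Some protein-coding genes were confined to one line, by the rule of at least 1 CPM in each library of that line and at most 3 counts in each library of the other. That held for 95 genes in MIAPACA2, of which 72 had no count in any PSN1 library, and for 329 genes in PSN1, of which 257 had no count in any MIAPACA2 library. In BXPC3 vehicle 31.6% of the MIAPACA2 genes and 59.3% of the PSN1 genes averaged 1 CPM or more. Folds against a line without counts are given as lower bounds, with 3 counts per library taken as the most that a count of 0 allows.

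KLK6, at chr19:50958631-50969673 on the minus strand, was at 443, 453, 500 and 362 CPM in MIAPACA2, and PSN1 held 1 count of it in 4 libraries, a ratio of 45700 (95% interval of counting error 8200 to 1810000). KLK5 was at 123 ± 5.18 CPM in MIAPACA2, against 0 in PSN1, at least 986-fold higher. The neuronal microtubule protein MAP2 followed at 79.2, 147, 119 and 74.7 CPM in MIAPACA2 with no count in PSN1, at least 842-fold higher. The rest of the 10 highest genes confined to MIAPACA2 were the matrix gene ADAMTSL1 (at least 639-fold higher), PLPPR3 (at least 410-fold), the caveola protein CAVIN2 (at least 394-fold), the muscle ubiquitin ligase TRIM55 (at least 324-fold), SMAD4 (at least 315-fold), the doublecortin-domain gene DCDC2 (at least 302-fold) and the salt-inducible kinase SIK1 (at least 279-fold), all without a count in PSN1.

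The genes confined to PSN1 reached higher levels. PTGS2 had no count in MIAPACA2 and stood at 1940, 1570, 702 and 1140 CPM in PSN1, so it was at least 16600-fold lower in MIAPACA2. The gastric mucin MUC5AC had no count in MIAPACA2 and stood at 1110, 1070, 1260 and 1100 CPM in PSN1, at least 14100-fold lower in MIAPACA2, and was at 0.239 CPM in BXPC3. CST1, a secreted cysteine protease inhibitor, had no count in MIAPACA2, against 889 ± 70.9 CPM in PSN1 (at least 11000-fold lower). PRSS2 had none in MIAPACA2, against 380 ± 134 CPM in PSN1, where reads of its near-identical trypsinogen neighbors may be split between them. The others of the 10 were the GABA receptor subunit GABRE (at least 4510-fold lower in MIAPACA2), the basement membrane collagen COL4A5 (at least 3310-fold), the elastase inhibitor PI3 (at least 3140-fold), the serine protease HTRA3 (at least 3120-fold) and a pair of genes with at most 2 counts in a MIAPACA2 library. Of the pair, IGFBP3, an IGF-binding protein, was 27700-fold lower in MIAPACA2 (interval 7670 to 229000) and the adhesion protein AMIGO2 38800-fold lower (6960 to 1530000).

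The largest folds were also taken among protein-coding genes that averaged at least 2 CPM in the lower line, which leaves out larger folds of genes under that level, such as ALDH1A1, COL1A2, SCG2, DUSP6 and FN1 below. The 12 largest toward MIAPACA2 were the collagens COL5A2 and COL6A2 (log2 fold change 7.20), TM4SF18 (7.15), TCF7, SHOX2 (6.66), TFAP2A (6.36), ADIRF (6.25), the Wnt receptor FZD8 (6.24), the zinc transporter SLC39A10 (5.79), ADGRG6 (5.68), the actin-severing GSN (5.54) and MALL. COL5A2 averaged 524 ± 104 CPM in MIAPACA2 and 2.34 ± 1.81 in PSN1, with a log2 fold change of 7.79 ± 0.86 (adjusted p 5.58e-05). TCF7, a transcription factor of the Wnt pathway, was at 328, 289, 300 and 304 CPM in MIAPACA2, against 4.74, 2.09, 1.42 and 1.82 in PSN1, a log2 fold change of 6.90 ± 0.42 (adjusted p 1.16e-06). The 12 ended with MALL, at 5.36 ± 0.26.
The 12 largest toward PSN1 were the complement factor CFB, the laminin chain LAMB1 (-7.25), LTBP2 (-6.71), UNC13A (-6.66), the plasminogen activator PLAT (-6.65), TPBG (-6.63), the anchoring collagen COL7A1, the neurotensin receptor NTSR1 (-6.57), the apolipoprotein APOE (-6.15), ZC3H12A (-6.08), NFKBIZ (-6.05) and GBP2. CFB averaged 2.63 ± 0.6 CPM in MIAPACA2 and 476 ± 57.4 in PSN1, a log2 fold change of -7.50 ± 0.28 (adjusted p 1.11e-07). COL7A1 averaged 26.5 ± 15.4 CPM in MIAPACA2 and 2610 ± 698 in PSN1, a log2 fold change of -6.62 ± 0.52. GBP2, the last of the 12, fell by 5.91 on the log2 scale. ZC3H12A and NFKBIZ, both induced by NF-kB and both restraints or modifiers of its output, stood at 3.94 ± 0.508 and 4.09 ± 1.22 CPM in MIAPACA2, against 267 ± 20 and 271 ± 98.2 CPM in PSN1.

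Classical genes of pancreatic cancer that could be tested were mostly lower in MIAPACA2. Of 13 members tested, 0 were higher and 10 lower, while 17 of the 32 members had no count in MIAPACA2 and 7 none in PSN1. Of the 13 tested, 7 had no count in one of the lines. Such genes pass the filter only through the line that holds them, which fixes their direction. The summed level of the list was 18.8 to 25.3 CPM in MIAPACA2 and 1310 to 1670 CPM in PSN1, and MUC5AC alone made up 1070 to 1260 CPM of the PSN1 sums. The trefoil peptides TFF1, TFF2 and TFF3, which stabilize gut mucus, had no count in MIAPACA2 and averaged 18.9, 68.6 and 25.1 CPM in PSN1, and the annexin ANXA10 had none in MIAPACA2 against 150 ± 97.7 in PSN1. CEACAM6, AGR2 and CLDN18 were among 19 members of 32 too low to be tested. GATA6, the transcription factor of the classical state, had no count in MIAPACA2 and stood at 39.5, 40.8, 40.2 and 31.2 CPM in PSN1, at least 471-fold lower in MIAPACA2. FOXA2, a pioneer factor of foregut endoderm, had no count in MIAPACA2 either, against 54.6, 60.9, 52.8 and 54.6 CPM in PSN1.
The lineage transcription factors as a list were split, with 5 higher and 6 lower of 15. TP63, the factor of squamous and basal epithelium, averaged 37.3 ± 7.48 CPM in MIAPACA2 and 0.0917 in PSN1, beside 221 in BXPC3. SOX9, a ductal progenitor factor, was higher in MIAPACA2 at 167 ± 15.3 CPM against 84.1 ± 15.4 in PSN1 (log2 fold change 0.99, adjusted p 0.00227), and GATA4 stood at 17.1 ± 1.46 and 18.3 ± 1.14 CPM in that order (adjusted p 0.698).
Basal genes did not fall on one side, with 6 higher and 5 lower of 13. Beside TP63 the long RNA UCA1 averaged 101 ± 9.46 CPM in MIAPACA2 and 0.107 in PSN1, and KRT15 62.5 ± 21.2 and 6.82 ± 1.67 CPM, while DHRS9 had no count in MIAPACA2 and 53.4 ± 27.4 CPM in PSN1. Of acinar and islet markers, 0 were higher and 4 lower of 5 tested. Those were the digestive enzyme genes PRSS1 (no count in MIAPACA2, 93.1 ± 11.5 CPM in PSN1), PRSS2, CTRC and AMY2B, while CPA1, PNLIP, INS and GCG were too low to be tested in either line. PRSS1 and PRSS2, without a count in MIAPACA2, passed the filter through PSN1 alone, which fixed their direction. Of all genes 24.1% were higher and 23.5% lower.

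Epithelial junction genes were lower in MIAPACA2 for 10 of 28 tested and higher for 5, with a median log2 fold change of -1.04. Of all genes 23.5% were lower and 24.1% higher. ESRP2, a splicing regulator of epithelial cells, averaged 0.167 CPM in MIAPACA2 and 14.8 ± 3.22 in PSN1, and ELF3, an epithelial transcription factor, 4.38 ± 0.36 and 50.2 ± 10.7 CPM. The tight junction gene TJP3 went the other way, at 16.1 ± 1.84 CPM in MIAPACA2 and 0.841 in PSN1. CLDN4 stood at 42.7 CPM in MIAPACA2 and 52.2 in PSN1 and did not pass. Keratins were lower for 8 of 15 and higher for 2, and KRT79 had no count in MIAPACA2 against 142 ± 56.4 CPM in PSN1.

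Mesenchymal genes were divided between the lines, 10 higher and 11 lower in MIAPACA2 of 25 tested, and 10 and 9 without scaling. VIM, the intermediate filament of mesenchymal cells, was at 9430, 7910, 8450 and 9620 CPM in MIAPACA2, against 2310, 797, 724 and 1180 CPM in PSN1, with no overlap. Its log2 fold change was 2.82 ± 0.39 (adjusted p 0.000228), and BXPC3 stood at 7.62 CPM. AXL, a receptor kinase linked to mesenchymal state, was also higher in MIAPACA2, at 128 ± 45.7 CPM against 44.8 ± 10.2 in PSN1 (log2 fold change 1.51, adjusted p 0.00165), a call lost with the mitochondrial share as a covariate (0.823, adjusted p 0.132). FN1, the matrix protein fibronectin, averaged 0.491 ± 0.356 CPM in MIAPACA2 and 829 ± 461 in PSN1, a log2 fold change of -10.67 ± 0.85. TNC, tenascin C, averaged 0.0392 CPM in MIAPACA2 and 122 ± 53.2 in PSN1. Of the ZEB repressors of CDH1, ZEB1 was higher in MIAPACA2 (34.5 ± 13.5 against 13.3 ± 5.79 CPM, adjusted p 0.0196) and ZEB2 lower (0.0612 against 26.2 ± 14.5 CPM). CDH2 and TWIST1 were too low to be tested.

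Neuronal and neuroendocrine genes were called for 15 of 16 tested, 8 higher and 7 lower in MIAPACA2, beside 47.5% of all genes called. Of the 36 members, 12 had no count in MIAPACA2 and 13 none in PSN1. Members at or near 0 in one line pass the filter only through the other, which raises the share called. SCG2, a granin of secretory vesicles, was at 809, 911, 823 and 713 CPM in MIAPACA2, against 0.254, 0.417, 0 and 0.772 CPM in PSN1. The vesicle calcium sensor SYT1 (127 ± 31.1 against 0.0353 CPM) and the neuronal tubulin TUBB3 (207 ± 15 against 11.6 ± 5.44 CPM) were higher in MIAPACA2 as well. In PSN1 stood NTSR1, at 5.25 ± 2 CPM in MIAPACA2 and 502 ± 98.6 in PSN1, and the prohormone-processing enzyme CPE, at 0.203 and 52.8 ± 46.6 CPM. CHGA and INSM1, which mark neuroendocrine cells, were too low to be tested.

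HOX genes, which mark position along the body axis, were lower in MIAPACA2 for 12 of 22 and higher for 4. Their summed levels overlapped, at 490 to 751 CPM in MIAPACA2 and 517 to 707 CPM in PSN1. HOXA members 1 to 5, 7, 10 and 11 were all among the lower ones, with HOXA3 at 6.38 ± 1.36 CPM in MIAPACA2 and 82.9 ± 13.5 in PSN1 and HOXA10 without a count in MIAPACA2 against 12.4 ± 2.7 CPM. The higher ones were HOXA13, HOXB8, HOXB9 and HOXB13, where HOXB8 averaged 142 ± 34.5 CPM in MIAPACA2 and 11.6 ± 4 in PSN1 and HOXB13 18.6 ± 3.49 CPM against none. Only 3 of 39 cancer-testis antigens were high enough to be tested, of which PRAME was at 55.9 ± 6.63 CPM in MIAPACA2 and 0.162 in PSN1 and DDX43 at 0.047 and 12.3 ± 3.58 CPM.

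Matrix receptors and matrix genes were mostly lower in MIAPACA2. Integrins were lower for 11 of 19 and higher for 2, with a median of -2.03. ITGA2, a collagen receptor chain, averaged 0.106 CPM in MIAPACA2, against 614, 260, 111 and 197 CPM in PSN1, and ITGA1, another, 0.0191 against 144 ± 14.4. ITGA5, the fibronectin receptor chain, was at 35 ± 4.05 CPM in MIAPACA2 and 390 ± 45.9 in PSN1 (log2 fold change -3.48, adjusted p 8.54e-07). The 2 higher ones were ITGB1 (608 against 280 CPM) and the hemidesmosome chain ITGB4 (420 ± 75.8 against 99.6 ± 17.2 CPM).
Laminins and basement membrane genes were lower for 13 of 22 and higher for 6. LAMB1 was at 4.42, 7.34, 5.6 and 4.18 CPM in MIAPACA2, against 880, 895, 687 and 814 CPM in PSN1 (log2 fold change -7.25 ± 0.29, adjusted p 1.56e-07). LAMA5, a laminin chain of epithelial basement membranes, averaged 94.5 ± 32.2 CPM in MIAPACA2 and 2230 ± 761 in PSN1. Collagen IV chains went in both directions, with COL4A5 and COL4A6 lower in MIAPACA2 and COL4A1 and COL4A2 higher (7.37 and 22 CPM, against 0.209 and 0.306 in PSN1).
Fibrillar and other collagens were lower for 11 of 20 and higher for 7, with overlapping sums of 3210 to 4460 CPM in MIAPACA2 and 3460 to 7030 CPM in PSN1. COL1A2, a chain of type I collagen, was at 1940, 2820, 2400 and 1660 CPM in MIAPACA2, against 0.536, 1.3, 0 and 1.82 CPM in PSN1, a log2 fold change of 11.20 ± 0.86 (adjusted p 4.61e-06). Its partner chain COL1A1 stood at 1.45 CPM in MIAPACA2 and 14.8 in PSN1 (log2 fold change -3.35), in the direction opposite to COL1A2. COL6A1 averaged 468 ± 63.9 CPM in MIAPACA2 and 4950 ± 1510 in PSN1, while COL6A2 averaged 320 ± 57 and 2.23 ± 2.04 CPM.
Matrix proteases and their inhibitors were lower for 16 of 27 and higher for 5, with a median of -3.56. TIMP1, an inhibitor of matrix metalloproteases, averaged 889 ± 159 CPM in MIAPACA2 and 20600 ± 3940 in PSN1, and TIMP2, its relative, 865 ± 195 and 54.7 ± 38.2 CPM. The collagenase MMP1 was at 0.376, 2.17, 1.55 and 0.62 CPM in MIAPACA2, against 2130, 1040, 842 and 797 CPM in PSN1. PLAT, which activates plasminogen, averaged 14.9 ± 0.777 CPM in MIAPACA2 and 1500 ± 193 in PSN1, while PLAU, the other plasminogen activator, averaged 210 ± 8.63 and 27.1 ± 12.4 CPM.
Of the caveola, S100 and annexin genes, 16 of 29 were lower and 8 higher. S100A6 (449 ± 139 against 3030 ± 1080 CPM) was lower in MIAPACA2, and ANXA1 (1770 ± 178 against 323 ± 212 CPM) and S100A1 (60.9 against 1.79 CPM) higher.

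Receptor tyrosine kinases were called evenly, 12 higher and 12 lower in MIAPACA2 of 33. ERBB2 averaged 146 ± 24.7 CPM in MIAPACA2 and 10.4 ± 4.95 in PSN1 (log2 fold change 3.81 ± 0.38, adjusted p 2.96e-05), and ERBB3, its signaling partner, 19.9 ± 2.63 and 2.63 ± 1.83 CPM. EPHA4 (297 ± 99.5 against 26.4 ± 13.7 CPM) and the collagen receptor DDR2 (48.3 ± 15.3 against 2.06 ± 1.21 CPM) were higher too. EGFR was at 60.1, 102, 76.4 and 53.4 CPM in MIAPACA2, against 172, 106, 74.7 and 102 CPM in PSN1, overlapping ranges with a log2 fold change of -0.64 and an adjusted p of 0.101. It was called lower with the mitochondrial covariate (-1.423, adjusted p 0.00638), with median-of-ratios scaling (0.035), in a joint fit of all 24 libraries (0.0394) and without PSN1 replicate 3 (0.0401). EPHB6 and KDR had no count in MIAPACA2, against 142 ± 40.5 and 16.2 ± 8.39 CPM in PSN1, and the PDGF receptors PDGFRA and PDGFRB averaged 0.0157 and 0.126 CPM in MIAPACA2 and 19.7 and 12.7 CPM in PSN1.
Growth factor ligands were lower in MIAPACA2 for 17 of 39 and higher for 6. TGFA, an EGFR ligand, averaged 0.0137 CPM in MIAPACA2 and 21.4 ± 8.06 in PSN1, and the stress-induced ligand GDF15 0.996 ± 0.338 and 190 ± 68.8 CPM. IGF2 (57 ± 4.25 against 507 ± 110 CPM) and VEGFA (45 ± 4.7 against 262 ± 81.3 CPM) were lower as well. Among the higher ones were the EGFR ligand BTC (14.7 ± 2.88 against 0.18 CPM), PDGFC (84.9 ± 28.8 against 2.88 ± 2.5 CPM) and the Wnt inhibitor DKK1 (92.7 ± 5.02 against 6.39 ± 5.82 CPM).

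**Figure D2:**
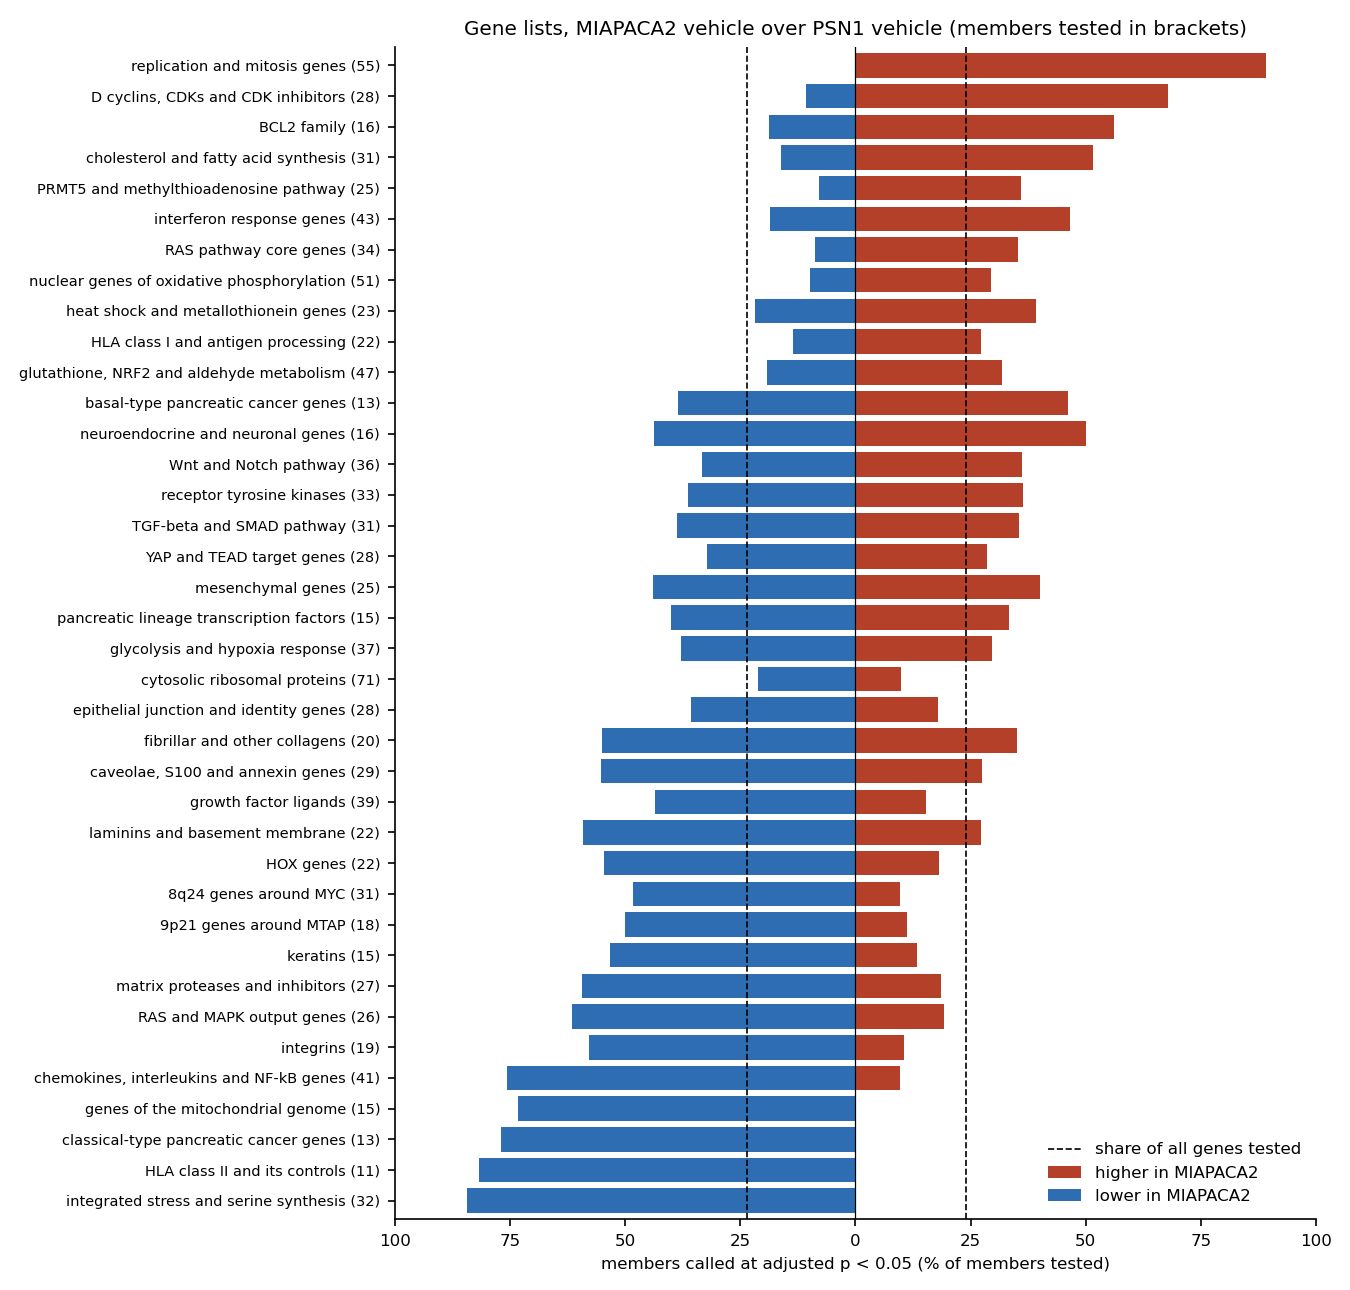
Share of the tested members of each list with at least 10 tested members that passed an adjusted p of 0.05, higher (right) or lower (left) in MIAPACA2 vehicle than in PSN1 vehicle, with dashed lines at the shares over all genes tested (24.1 and 23.5%). Replication genes lie at one end with 49 of 55 higher, and integrated stress genes at the other with 27 of 32 lower.

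With the mitochondrial covariate fewer genes were called higher in most lists, while calls of lower genes moved less. Of the lists above, mesenchymal genes then had 4 higher and 8 lower, receptor tyrosine kinases 7 and 11, growth factor ligands 2 and 15, laminins 3 and 12, caveola, S100 and annexin genes 5 and 13, and epithelial junction genes 3 and 11. Of those below, Wnt and Notch genes had 5 and 6, YAP and TEAD targets 3 and 8, TGF-beta and SMAD genes 7 and 11, RAS and MAPK output genes 2 and 11, the BCL2 family 4 and 3, cholesterol and fatty acid genes 10 and 5, and glycolysis and hypoxia genes 6 and 16.

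Of the 34 core genes of the RAS pathway, 12 were higher and 3 lower in MIAPACA2, with the kinase MAPK3 (95.9 ± 15.7 against 15.3 ± 6.95 CPM, log2 fold change 2.65 ± 0.31) among the higher and the scaffold KSR1 among the lower ones. With the mitochondrial covariate 5 were higher and 4 lower. Of all genes 24.1% were higher and 23.5% lower in the fit without it.
Output genes of RAS and MAPK signaling were lower for 16 of 26 and higher for 5, and for 8 without PSN1 replicate 1. DUSP6, the ERK phosphatase that ERK signaling induces, was at 0.72, 0.715, 0.496 and 0.647 CPM in MIAPACA2, against 1400, 1220, 744 and 1110 CPM in PSN1. That is a log2 fold change of -10.76 ± 0.36 (adjusted p 9.06e-08), and BXPC3 stood between them at 138 CPM. DUSP4 averaged 0.0666 CPM in MIAPACA2 and 186 ± 57.2 in PSN1, DUSP5 10.2 ± 1.73 and 199 ± 41.6 CPM, and the early response gene IER3 21.6 ± 4.15 and 533 ± 32.9 CPM. The feedback inhibitor SPRY2 was higher in MIAPACA2, at 315 ± 27.5 CPM against 42.9 ± 10.6 in PSN1, while SPRY4 was lower, at 269 ± 22.4 against 474 ± 61.5 CPM. CCND1 was among the 5 higher ones, at 159 ± 39.4 CPM in MIAPACA2 and 73.4 ± 17.4 in PSN1.
MYC was at 118, 160, 171 and 119 CPM in MIAPACA2, against 351, 399, 278 and 395 CPM in PSN1, with no overlap, a log2 fold change of -1.33 ± 0.21 (adjusted p 0.00066). Of the genes around MYC on 8q24, 15 of 31 were lower and 3 higher, among them the neighboring long RNA PVT1, at 12.9 ± 3.16 CPM in MIAPACA2 and 202 ± 25.9 in PSN1, and the kinase-like gene TRIB1, at 4.61 ± 0.479 and 140 ± 15.2 CPM.

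SMAD4 (chr18:51028394-51085045, plus strand) was at 28.1, 53.8, 46.2 and 29.2 CPM in MIAPACA2 and had no count in any PSN1 or BXPC3 vehicle library. The TGF-beta and SMAD list was split, 11 higher and 12 lower of 31. TGFBR2, the type II receptor of TGF-beta, had no count in MIAPACA2 and stood at 116, 41.4, 39.2 and 37 CPM in PSN1, so that MIAPACA2 lacked the receptor transcript and PSN1 that of the common SMAD. Among targets, ID3, a BMP and SMAD target, was at 298 ± 34.1 CPM in MIAPACA2 and 0.0351 in PSN1, while PMEPA1, a TGF-beta-induced inhibitor, was at 16.1 ± 1.11 and 291 ± 46.5 CPM. SMAD3 was at 43.9 ± 6.9 and 445 ± 18 CPM in that order.
The Wnt and Notch list had 13 higher and 12 lower of 36. FZD8 and FZD4, Wnt receptors, averaged 156 ± 11.8 and 98.1 ± 17.4 CPM in MIAPACA2 and 2.07 ± 0.69 and 3.8 ± 1.47 CPM in PSN1, and AXIN2, a common Wnt target, 4.6 ± 0.568 and 0.132 CPM. FZD1 was lower, at 5.06 ± 0.265 CPM in MIAPACA2 against 205, 72.6, 36.7 and 77.2 CPM in PSN1, and so was HES1, a Notch target, at 43 and 191 CPM. YAP and TEAD targets had 8 higher and 9 lower of 28, beside 24.1 and 23.5% of all genes. AMOTL2 averaged 95.5 ± 23.2 CPM in MIAPACA2 and 8.88 ± 2.03 in PSN1, and the coagulation gene F3 0.269 ± 0.122 and 96.4 ± 21.4 CPM.

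Inflammatory mediators were mostly lower in MIAPACA2. Of 41 chemokine, interleukin and NF-kB genes tested, 31 were lower in MIAPACA2 and 4 higher, with a median of -3.06. Among the 41, 6 had no count in one of the lines and passed the filter only through the other, which fixed their direction. The summed level was 529 to 618 CPM in MIAPACA2 and 3110 to 6120 CPM in PSN1. IL1B, an inflammatory cytokine, was at 0, 0.055, 0 and 0.189 CPM in MIAPACA2, against 2550, 1070, 846 and 1360 CPM in PSN1. IL6, the alarmin IL33, CCL2 and the myeloid growth factor CSF2 had no count in MIAPACA2 and averaged 56.8 ± 30.1, 221 ± 127, 31.9 ± 7.49 and 18.4 CPM in PSN1. ICAM1, an adhesion molecule induced by NF-kB, averaged 0.402 ± 0.222 and 255 ± 54.1 CPM in the same order of lines, and NFKBIA, the NF-kB inhibitor, 41.2 ± 3.75 and 165 ± 16.5 CPM. The exceptions were CCL5, CXCL16, CCL22 and IL1R1, where CCL5 averaged 32.1 ± 3.71 CPM in MIAPACA2 and 5.14 ± 3.26 in PSN1. RELA and NFKB1 did not pass, at 54.2 and 27.3 CPM in MIAPACA2 and 56.3 and 16 CPM in PSN1. PSN1 replicate 1 had the highest IL1B, IL6 and IL33 of the PSN1 libraries, and without it 31 members were lower and 6 higher.
Interferon response genes leaned to MIAPACA2 by count, 20 higher and 8 lower of 43. Their summed levels overlapped, at 1990 to 2230 CPM in MIAPACA2 and 1790 to 2130 CPM in PSN1. IFIT1, an antiviral effector, was at 82.6, 79.9, 73 and 75.8 CPM in MIAPACA2, against 3.73, 2.87, 0 and 2 CPM in PSN1 (log2 fold change 5.15 ± 0.76, adjusted p 0.000385), and IFIT2 averaged 77.5 ± 5.67 and 3.28 ± 1.47 CPM. The guanylate-binding proteins GBP1 and GBP2 were lower in MIAPACA2, at 0.469 and 2.05 CPM against 19.4 and 124 CPM in PSN1. With the mitochondrial covariate 9 were higher and 7 lower.
HLA class II genes and their controls had 0 higher and 9 lower of 11. Of the 11, 1 had no count in one of the lines. HLA-DRB5, HLA-DOB and HLA-DRA had at most 5, 6 and 16 counts in a MIAPACA2 library. Members at or near 0 in MIAPACA2 passed the filter through PSN1, which largely fixed their direction. CD74, the invariant chain, was at 1.57, 0.357, 1.03 and 0.89 CPM in MIAPACA2, against 335, 300, 219 and 277 CPM in PSN1, and the master activator CIITA averaged 1.99 ± 1.08 and 13.5 ± 2.49 CPM. Reads of HLA genes can be shared between paralogs, so single HLA values are uncertain. HLA class I and antigen processing had 6 higher and 3 lower of 22, where 24.1 and 23.5% of all genes were. The counts were 11 and 3 without PSN1 replicate 1, and 2 and 4 with the mitochondrial covariate. B2M, the light chain of class I, was at 490, 566, 539 and 435 CPM in MIAPACA2, against 949, 315, 300 and 432 CPM in PSN1 (adjusted p 0.96). It was called lower with the mitochondrial covariate (-0.917, adjusted p 0.0235) and higher without PSN1 replicate 1 (0.54, adjusted p 0.0324), so its direction depended on the fit. HLA-E averaged 196 ± 24.3 CPM in MIAPACA2 and 63.1 ± 5.37 in PSN1, and NLRC5, the class I activator, 5.95 ± 0.248 and 53.1 ± 12.9 CPM.

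MTAP (chr9:21802543-21937651, plus strand) was at 0.752, 0.412, 0.237 and 1.29 CPM in MIAPACA2, against 1.38, 1.25, 5.5 and 2.56 CPM in PSN1, overlapping ranges with an adjusted p of 0.0529. It was called lower in MIAPACA2 in 8 alternatives, among them DESeq2 (adjusted p 0.00978), the joint fit (0.0087), voom (0.0443) and median-of-ratios scaling (0.0448). CDKN2A had 0 counts in MIAPACA2, against most 0.631 CPM in a PSN1 library, and was not tested. CDKN2B, the CDK inhibitor next to it, had no count in MIAPACA2 or BXPC3 and stood at 200, 194, 113 and 166 CPM in PSN1, at least 2090-fold lower in MIAPACA2. Other 9p21 genes without a count in MIAPACA2 were FOCAD (36.6 ± 13.7 CPM in PSN1), IFNE (21.7 ± 11.3), KLHL9 (11.3 ± 4.6), DMRTA1, TUSC1 and MOB3B. Across the region 9 of 18 genes tested were lower in MIAPACA2 and 2 higher, where 23.5 and 24.1% of all genes were. Of the 18, 7 had no count in one of the lines and passed the filter only through the other, which fixed their direction.
PRMT5, the target of the drug, was at 38.9, 65.4, 54.8 and 31 CPM in MIAPACA2, against 58.5, 33.9, 51.4 and 50.9 CPM in PSN1, a log2 fold change of -0.03 ± 0.27 (adjusted p 0.927). Its partner WDR77 was lower, at 36 ± 3.69 CPM in MIAPACA2 and 55.1 ± 10.2 in PSN1 (log2 fold change -0.61, adjusted p 0.0301), a call lost without scaling, without the filter on low counts and on leaving out any one of 5 libraries. MAT2A, which makes S-adenosylmethionine, was at 338, 538, 517 and 461 CPM in MIAPACA2, against 513, 113, 153 and 196 CPM in PSN1 (adjusted p 0.1). It was called higher without PSN1 replicate 1 (log2 fold change 1.588, adjusted p 0.000641), with voom (adjusted p 0.0293) and in the joint fit (0.0395). Of the PRMT5 and methylthioadenosine list, 9 were higher and 2 lower of 25, where 24.1 and 23.5% of all genes were. Among the lower was the spermine oxidase SMOX, at 6 ± 1.14 CPM in MIAPACA2 and 218 ± 56.7 in PSN1. With the mitochondrial covariate the counts were 3 and 3.

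The CDK inhibitor CDKN1A was lower, at 3.68 ± 0.715 CPM in MIAPACA2 and 10.4 ± 4.81 in PSN1 (adjusted p 0.0104), and so was MDM4, a gene spliced under PRMT5 control, at 42 ± 9.82 CPM in MIAPACA2 and 70.7 ± 5.17 in PSN1. The MDM4 call (log2 fold change -0.75, adjusted p 0.0135) was lost without scaling, with the mitochondrial covariate and without MIAPACA2 replicate 3. In the BCL2 family 9 of 16 were higher and 3 lower. BCL2 averaged 11.7 ± 3.67 CPM in MIAPACA2 and 0.172 in PSN1, BCL2L1 74.3 ± 11.3 and 29.9 ± 16.9 CPM, and MCL1, another inhibitor of cell death, 168 ± 13.6 CPM in MIAPACA2 and 672 ± 285 in PSN1.

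Genes of DNA replication and mitosis were higher in MIAPACA2 for 49 of 55 and lower for 0, where 24.1 and 23.5% of all genes were, with a median log2 fold change of 2.10. Their summed level was 3350, 4510, 4060 and 3050 CPM in the MIAPACA2 vehicle libraries and 1260, 935, 794 and 955 CPM in those of PSN1, while BXPC3 vehicle libraries held 4810 to 4990 CPM. The proliferation antigen MKI67 averaged 153 ± 53.3 CPM in MIAPACA2 and 21.3 ± 4.6 in PSN1 (log2 fold change 2.85 ± 0.30, adjusted p 3.85e-05). TOP2A, the topoisomerase of dividing cells, averaged 335 ± 123 and 29.1 ± 11.2 CPM, and the helicase subunit MCM2 77.5 ± 28.1 and 12.6 ± 4.27 CPM. GINS4, another part of the replicative helicase, was at 181, 279, 241 and 170 CPM in MIAPACA2, against 3.47, 1.48, 1.42 and 1.51 CPM in PSN1, but at 8.12 CPM in BXPC3. The thymidylate synthase TYMS averaged 94.5 ± 17.7 and 6.73 ± 3.46 CPM. KIF23, BUB1B, CDC20, CENPE, GINS3 and RFC4 did not pass.
Cyclins, CDKs and their inhibitors were higher for 19 of 28 and lower for 3, and with the mitochondrial covariate for 9 and 3. CCNA2 was at 18.1, 36.1, 35.4 and 16.6 CPM in MIAPACA2, against 4.63, 4.36, 3.74 and 1.54 CPM in PSN1, and CDK6 averaged 94.1 ± 28.3 and 12.9 ± 10.9 CPM. CDKN2C, an inhibitor of CDK4 and CDK6, averaged 48 ± 1.66 CPM in MIAPACA2 and 0.0947 in PSN1, and RB1 47.5 ± 16.8 and 12.2 ± 4.66 CPM. The lower ones were CDKN2B, CDKN1A and E2F7.
Mitochondrial share moved with these genes: the MIAPACA2 libraries with the lower shares, replicates 2 and 3, had the higher replication sums, and PSN1 replicate 1, with the lowest share in PSN1, the highest PSN1 sum. With the share as a covariate 31 replication genes were higher and 0 lower, and without PSN1 replicate 3, 51 were higher and 1 lower. The part of RNA quality in these differences was not tested.

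The same lists looked different in the AM-9747 libraries of the 2 lines, where line and dose cannot be told apart. The replication sum was 2330 to 2950 CPM in MIAPACA2 and 2560 to 3300 CPM in PSN1 there, and 12 genes were higher and 13 lower of 55, where 24.3 and 26.3% of all genes were. The log2 fold change of MIAPACA2 over PSN1 was lower in AM-9747 than in vehicle for 42 of the 55 by the test of that change (median -2.05), a test that called 1257 of 21424 genes in all (5.87%). That total ranged from 600 without MIAPACA2 vehicle replicate 3 to 4368 without PSN1 vehicle replicate 1. GINS4 kept its direction, at 65.5 CPM in MIAPACA2 and 4.48 in PSN1, with a smaller difference (adjusted p 0.000864 for the change). The mitochondrial share of the PSN1 AM-9747 libraries was 7.98, 14.1, 26.8 and 31.1%, against 17.4 to 43.8% in the PSN1 vehicle libraries, and its part in this was not tested.

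**Figure D3:**
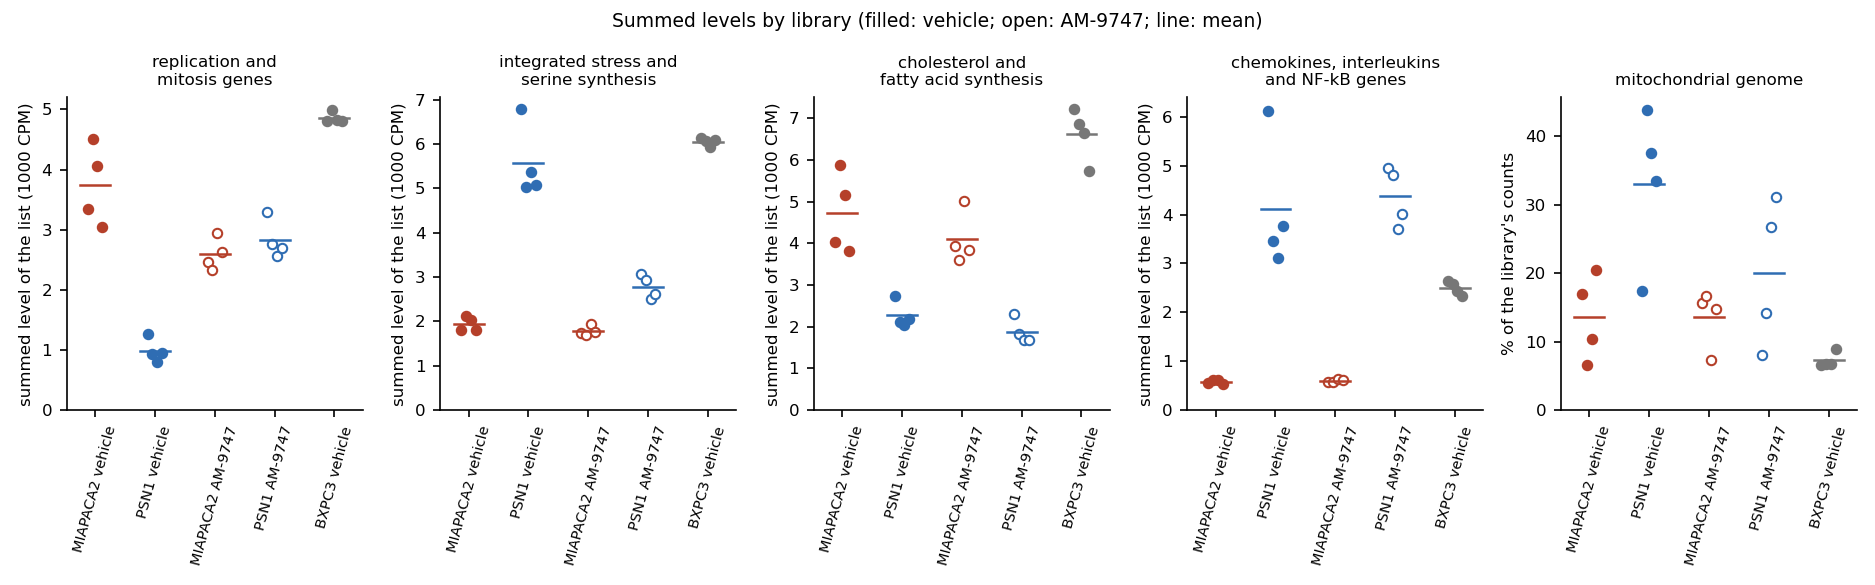
Summed CPM of 4 gene lists (in kilo-CPM) and the mitochondrial share of counts (%) in each library, filled for vehicle and open for AM-9747, with the mean as a line. In vehicle the replication sum is 3050 to 4510 CPM in MIAPACA2 and 794 to 1260 CPM in PSN1, and in AM-9747 the lines overlap.

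Integrated stress and serine synthesis genes, which cells induce through ATF4 when amino acids run short or protein folding fails, were lower in MIAPACA2 for 27 of 32 and higher for 0. Their sum was 1810, 2110, 2030 and 1810 CPM in MIAPACA2 and 6800, 5040, 5370 and 5070 CPM in PSN1. ATF4 averaged 204 ± 51.9 CPM in MIAPACA2 and 1070 ± 131 in PSN1 (log2 fold change -2.39 ± 0.24, adjusted p 2.81e-05). Asparagine synthetase ASNS averaged 32.8 ± 2.58 and 315 ± 60 CPM, the ATF4-induced TRIB3 25 ± 1.63 and 304 ± 109 CPM, and the mitochondrial folate enzyme ALDH1L2 0.157 and 67.4 ± 32.6 CPM. BXPC3 was at a sum of 5930 to 6130 CPM, near PSN1. With the mitochondrial covariate 28 were lower. In AM-9747 libraries 18 were lower and 5 higher of 31, with sums of 1700 to 1940 CPM in MIAPACA2 and 2510 to 3070 CPM in PSN1, and the log2 fold change was higher there than in vehicle for 17 of 32 by the test of the change. NUPR1, a stress-induced nuclear protein, averaged 2.37 ± 0.252 CPM in MIAPACA2 and 100 ± 47.1 in PSN1 in vehicle. In AM-9747 it averaged 8.22 and 18.3 CPM in the same order (adjusted p 7.3e-05 for the change).

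Cholesterol and fatty acid synthesis genes were higher in MIAPACA2 for 16 of 31 and lower for 5. FASN, fatty acid synthase, averaged 676 ± 212 CPM in MIAPACA2 and 213 ± 42.7 in PSN1 (log2 fold change 1.67, adjusted p 0.00067). FADS2, a fatty acid desaturase, was higher in MIAPACA2 as well, at 63.7 ± 17.7 against 3.58 ± 2.04 CPM.
Glycolysis and hypoxia genes had 11 higher and 14 lower of 37, 14 and 13 without scaling and 17 higher without PSN1 replicate 1. The enzymes GAPDH (5310 ± 377 against 2280 ± 495 CPM) and TPI1 (583 ± 99.5 against 117 ± 70.3 CPM) were higher in MIAPACA2. The hypoxia-induced carbonic anhydrases were lower, with no count of CA9 in MIAPACA2 against 36.8, 38.6, 50.6 and 31.1 CPM in PSN1 and CA12 at 0.158 against 83.8 ± 7.11 CPM. PFKFB4, a regulator of glycolysis, averaged 5.43 ± 1.54 and 254 ± 94.1 CPM.
In glutathione, NRF2 and aldehyde metabolism 15 of 47 were higher and 9 lower, where 24.1 and 23.5% of all genes were. ALDH1A1, a retinal dehydrogenase used as a marker of stem-like cells, was at 1790, 1550, 1490 and 1710 CPM in MIAPACA2, against 0.254, 0.603, 0 and 0 CPM in PSN1. The NRF2 targets NQO1 (1020 ± 53.7 against 107 ± 59 CPM) and GCLM (111 ± 20.7 against 6.21 ± 5.8 CPM) were higher and SLC7A11, the cystine carrier (1.5 ± 0.454 against 21.6 ± 3.57 CPM), was lower. ALDH2 was lower at 2.36 ± 0.471 against 82.6 ± 17.4 CPM.
Genes of the mitochondrial genome were lower for 11 of 15 and higher for 0, with a median of -1.65. MT-CO1, a subunit of cytochrome oxidase, averaged 25300 ± 12800 CPM in MIAPACA2 and 108000 ± 43200 in PSN1. With totals taken without the mitochondrial genome these genes drop out, and with its share as a covariate 1 was lower. That share is counted from these same genes, so the fall was built into the fit and decides nothing about them. Nuclear genes of oxidative phosphorylation were higher for 15 of 51 and lower for 5, where 24.1 and 23.5% of all genes were. The counts were 28 and 5 without PSN1 replicate 1, 26 and 1 without scaling, and 5 and 5 with the covariate.
Cytosolic ribosomal protein genes had 7 higher and 15 lower of 71, beside 24.1 and 23.5% of all genes. That split turned to 18 higher and 3 lower without scaling of the totals and to 21 and 16 without PSN1 replicate 1. Heat shock and metallothionein genes had 9 higher and 5 lower of 23, and 2 and 2 with the covariate. The chaperone HSP90AB1 averaged 2060 ± 473 and 484 ± 461 CPM, and metallothionein MT1E 778 ± 177 and 123 ± 30 CPM, while MT1F had no count in MIAPACA2 against 15.6 ± 4.43 CPM. Metallothionein genes are near-identical, and their reads may be split.

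Markers of other cell types were read in both lines. PTPRC and CD3E of immune cells and CDH5 and VWF of endothelium were too low to be tested. Immune markers had 0 higher and 3 lower of 5 tested of 17, with sums of 7.07 to 14.7 CPM in MIAPACA2 and 30.3 to 66.7 CPM in PSN1, and 5 members had no count in the MIAPACA2 libraries and 5 none in those of PSN1. Endothelial markers had 1 higher and 3 lower of 6, with sums of 95.2 to 123 CPM in MIAPACA2 and 64.9 to 79.6 CPM in PSN1. PECAM1 was lower, at 0.0503 CPM in MIAPACA2 and 36 ± 4.21 in PSN1. EGFL7 was the higher one, at 106 ± 13.2 CPM in MIAPACA2 and 11.5 ± 4.18 in PSN1, and made up most of the MIAPACA2 sums. Fibroblast markers had 3 higher and 4 lower of 7, with sums of 1700 to 2880 CPM in MIAPACA2, nearly all COL1A2, and 52.3 to 90.1 CPM in PSN1, while DCN, LUM and FAP were too low to be tested. Acinar markers summed to 3.55 to 13.2 CPM in MIAPACA2 and 355 to 678 CPM in PSN1. Their part in the other results was not tested.

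Neighboring genes were summarised along the chromosomes. Over 13268 windows of 15 neighboring protein-coding genes, 12.9% had a median log2 fold change of at least 1 and 3.56% of -1 or less. The highest window lay on chromosome 8 from 25.4 to 27.8 Mb, with a median of 2.60 (1.57 over 25 genes) and 12 of 15 genes higher, among them the mitophagy gene BNIP3L. A further one lay on chromosome 10 from 87.8 to 89.8 Mb (median 2.13, and 1.25 over 25 genes), which holds ACTA2, FAS and the IFIT genes. The lowest lay on the X chromosome from 104 to 107 Mb (median -4.33, 10 of 15 lower, 5 of the 15 without a count in one line, and -1.49 over 25 genes) and on 9p from 19.2 to 27.5 Mb (median -4.32), the window of CDKN2B and MTAP, where 7 of 15 genes had no count in MIAPACA2. Over 25 genes the 9p median was 0.22, so its sign turned with the wider window. By chromosome the median was 0.93 on 21, 0.90 on 10 and 0.85 on 6, and -0.38 on 20. Medians of neighbors are given as a description, since copy number was not measured.

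**Figure D4:**
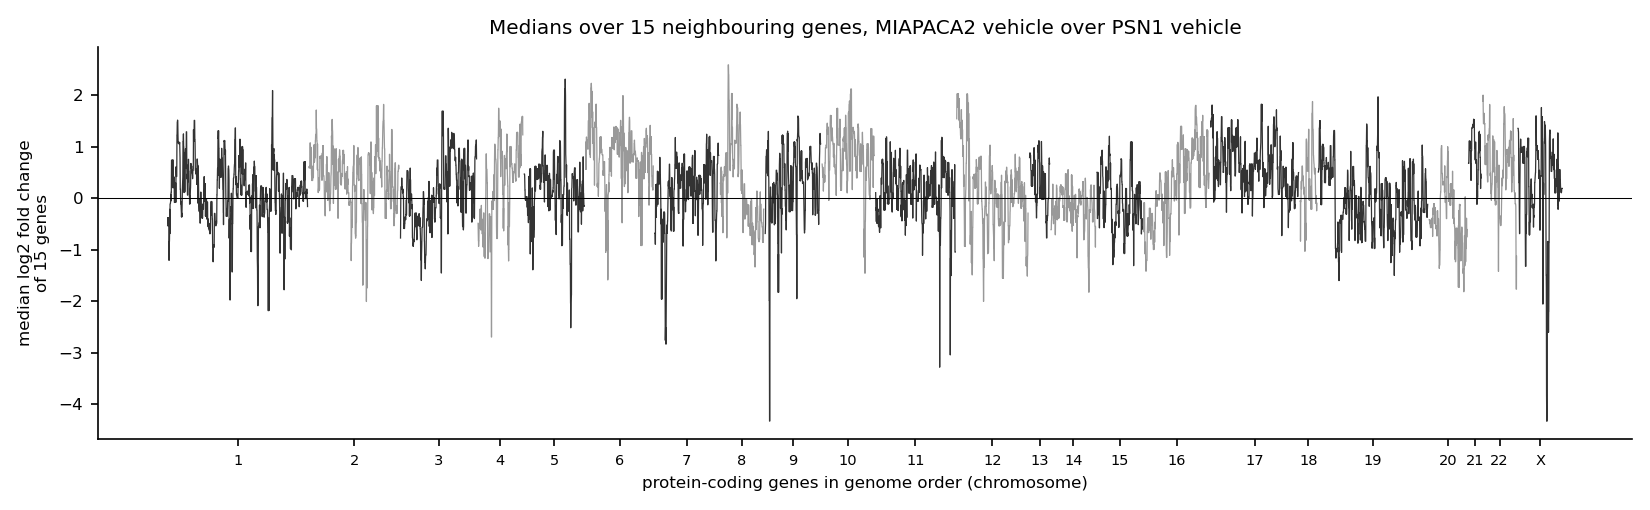
Median log2 fold change (MIAPACA2 vehicle over PSN1 vehicle) of 15 neighboring protein-coding genes along each chromosome, in genome order, alternating in shade by chromosome. The deepest dips are on X and 9p at -4.33 and -4.32, and the highest peak on chromosome 8 at 2.60.

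Most line differences were also present in the AM-9747 libraries, which share no sample with the vehicle ones. Of 8435 genes called in vehicle and tested in both, 5937 (70.4%) were called with the same sign in AM-9747 and 89 with the other, and 7827 (92.8%) had the same sign. In AM-9747 libraries 9993 of 19729 genes were called (50.7%). Of the genes confined to a line in vehicle, 26.3% of the MIAPACA2 set and 61.4% of the PSN1 set met the same rule in AM-9747. PSN1 AM-9747 libraries held more than 3 counts of 22 to 43 of the 95 MIAPACA2 genes, at 0.626 to 0.818% of their summed level in MIAPACA2 vehicle, and MIAPACA2 AM-9747 libraries held more than 3 counts of 32 to 54 of the 329 PSN1 genes, at 0.0594 to 0.0943%.
PTGS2 had no count in MIAPACA2 and 1040 CPM in PSN1 with AM-9747, and DUSP6 stood at 1.95 and 581 CPM. VIM was at 6890 and 1710 CPM, and the change of its difference had an adjusted p of 0.241. AXL, by contrast, stood at 84.4 CPM in MIAPACA2 and 92 in PSN1 in AM-9747 (adjusted p 0.709, and 0.0232 for the change), and MDM4 at 39.9 and 35.1 CPM (0.0299 for the change). PRMT5 was lower in MIAPACA2 in AM-9747, at 44.6 against 96.9 CPM (adjusted p 0.00193), and the change from vehicle had an adjusted p of 0.0882.

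**Figure D5:**
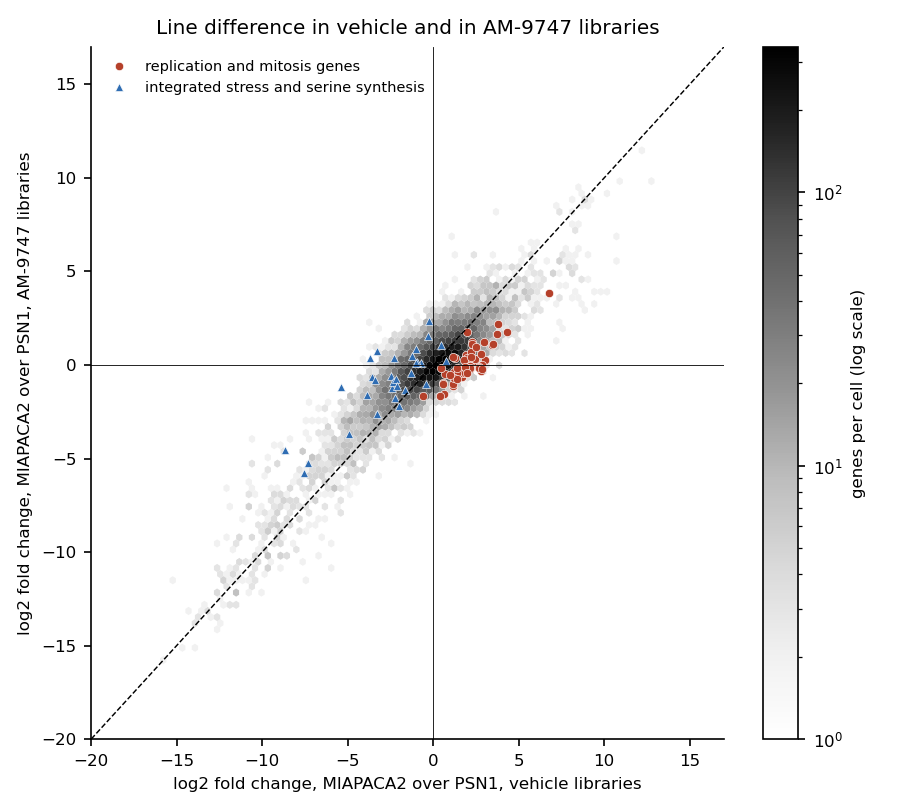
Log2 fold change of MIAPACA2 over PSN1 in vehicle (x) and in AM-9747 libraries (y) for the 17622 genes tested in both, as a grey density, with replication and mitosis genes (circles) and integrated stress genes (triangles) marked and the line of equal values dashed. Pearson's r across genes, which are not independent replicates, is 0.892, and the replication genes lie right of the line with a median of 2.10 in vehicle and -0.09 in AM-9747.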

How the data were processed

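RNA-seq was made from 3 cell lines under vehicle or AM-9747, with 24 libraries in all. The authors deposited 1 table of raw read counts per gene, with 0 columns that match no sample. Per the submitters' processing notes, fastp 0.19.8, HISAT2 2.2.0, R 4.0.2 and DESeq2 1.34.0 were used, and the genome was GRCh38. Per the labels' protocols, libraries were stranded and poly(A)-selected. For the read counter and the annotation release, a name is not given in the sources used here. Gene positions come from GENCODE 29 and promoter sequences from RefSeq.

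From the counts, edgeR 4.0.16 gave quasi-likelihood tests (R 4.3.3) with TMM scaling over all 24 libraries, filterByExpr and Benjamini-Hochberg adjustment over all genes tested. A gene is called at an adjusted p below 0.05. The vehicle comparison was fitted on its 8 libraries, and the change with AM-9747 as an interaction over 16. DESeq2 1.42.0 and limma 3.58.1 (voom) were alternatives. Only the edgeR fit of the vehicle comparison was also run on simulated counts, and the other steps were not. Intervals on ratios cover counting error only.

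Genes were named by rule: 16 key genes, the 10 highest confined to each line, the 12 largest folds each way among genes averaging at least 2 CPM in the lower line, and up to 4 called members per list. Some genes of the rule, and 2 gene lists, are not reported here. Any further gene was picked with its values in view. The comparison, the gene lists and the rule were chosen with earlier results of these data known. Sequences are printed for 4 promoters only.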

Additional observations from a re-analysis of the deposited data

Results flagged for a closer look

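In 31 of 417 tests of 4 vehicle libraries, 1 library lay so far from the others that its gap to the nearest, divided by the whole range, passed Dixon's 95% critical value, where chance gives about 1 in 20. Of these 6 were in MIAPACA2 and 25 in PSN1, 11 of them in PSN1 replicate 1. Ratios of 1 belong to genes read in a single library of that line, for which the ratio is 1 by construction. The rate of 1 in 20 is for normally spread values, so the 31 cannot be set against it.
The ratios for MIAPACA2 replicate 1 were those of COL6A2 (0.902), DDX43 (1) and GINS3 (0.89).
For MIAPACA2 replicate 2 it was CEACAM6 (1).
For MIAPACA2 replicate 3 it was COL4A6 (1).
For MIAPACA2 replicate 4 it was NFKBIZ (0.855).
The ratios for PSN1 replicate 1 were those of CLDN18 (1), DCN (1), GINS4 (0.956), HOXA13 (1), HTRA3 (0.933), MAPK3 (0.926), NQO1 (0.918), SYT1 (1), TGFBR2 (0.944), TP63 (1) and TYMS (0.876).
The ratios for PSN1 replicate 2 were those of PRAME (1) and UCA1 (0.848).
The ratios for PSN1 replicate 3 were those of CDC20 (0.86), EPHA4 (0.917), MKI67 (0.883), NUPR1 (0.937), PDGFRA (0.881) and TIMP1 (0.841).
The ratios for PSN1 replicate 4 were those of AXIN2 (1), CDH5 (1), CDKN2C (0.92), GATA6 (0.869), ID3 (1) and MOB3B (0.852).

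The line difference changed between vehicle and AM-9747 for 51 of 176 genes named here whose lines both held over 3 counts in a vehicle library, by edgeR's quasi-likelihood test of the interaction, with its adjusted p in brackets. Over all genes this test called 1257 of 21424 (5.87%), and 600 to 4368 on leaving out 1 library. Many named genes were chosen by their vehicle difference, which this test uses again, so the count of 51 is no result about them as a set. PSN1 received a lower dose than MIAPACA2, so line and dose cannot be told apart. The 51 genes included ALDH1A1 (0.0447), ALDH1L2 (0.00783), ALDH2 (0.00213), AMOTL2 (0.0013), APOE (0.00253), ASNS (8.86e-08), ATF4 (0.0339), AXL (0.0232), BCL2 (0.0493), BCL2L1 (0.0179), BUB1B (0.0379), CCNA2 (0.00461) and CCND1 (0.0142). Others were CDC20 (0.00058), CDKN2C (0.0403), CFB (0.000195), DDR2 (0.00332), DKK1 (0.0151), DUSP5 (0.00066), DUSP6 (0.000189), E2F7 (0.033), EPCAM (0.0432), FZD8 (0.0245), GBP2 (0.0331), GDF15 (0.0268) and GINS3 (0.00492). Further ones were GINS4 (0.000864), HOXB9 (0.00765), ID3 (0.0188), IGF2 (0.00624), LAMB1 (0.0144), MALL (0.00198), MCM2 (0.0024), MDM4 (0.0299), MKI67 (8.18e-05), NLRC5 (0.00081), NQO1 (0.0191), NUPR1 (7.3e-05) and PLAT (0.0411). The rest were PLAU (0.0353), PVT1 (0.011), SCG2 (0.0119), SLC7A11 (0.00165), TCF7 (0.00619), TIMP1 (0.0191), TM4SF18 (0.00816), TOP2A (0.00321), TRIB3 (3.46e-05), TUBB3 (0.00145), VEGFA (0.00437) and ZC3H12A (0.00174).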

How the results depend on the processing

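With the mitochondrial share as a covariate 4501 genes passed, 1800 higher and 2701 lower in MIAPACA2, 4166 of them at least 2-fold apart, and 4150 were among the 8606 of the reported fit. B2M turned to -0.917 under it, and the 9p window turned to 0.22 over 25 genes. The cause was not tested. On leaving out 1 library in turn, the calls ranged from 7221 to 10098, those higher from 3409 to 5508, those lower from 3804 to 4801, those at least 2-fold apart from 6587 to 8558, the calls in AM-9747 from 9053 to 10711 and those of the change between vehicle and AM-9747 from 600 to 4368. That change gave 2867 calls by DESeq2 and 2389 in a joint fit of all 24 libraries. The share of calls that were higher was 50.6% as reported, 46.5% with median-of-ratios scaling, 63.6% without scaling and 40% with the covariate.

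Replicate numbers are shared between the lines, but same-numbered vehicle libraries did not deviate together (correlations -0.0939, -0.0403, -0.0175 and 0.0668). With the number as a replicate block 7162 genes passed, 3795 higher and 3367 lower, 8571 in AM-9747 and 859 for the change. Of 203 called genes named by rule 22 lost the call or turned under some alternative. Many of them were chosen for a large difference in these data, which favors keeping the call. The count therefore does not describe all genes, nor the further genes named outside the rule. PSN1 depth and detection limit genes near 0, where a count of 0 allows up to 3 counts per library.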

Other observations

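Traces of the genes confined to one line were also read in single vehicle libraries of the other. PSN1 vehicle replicate 1 held a count of 22 of the 95 MIAPACA2 genes, while the other 3 PSN1 libraries held a count of 1 or 2, and MIAPACA2 vehicle libraries held a count of 7 to 41 of the 329 PSN1 genes. As a share of the summed level in the line that expressed them, the traces were 0.00662 to 0.0708% in PSN1 and 0.00326 to 0.0139% in MIAPACA2.

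Acinar markers of PSN1 differed between its vehicle and AM-9747 libraries. Their sum was 38.1 to 42.7 CPM in PSN1 AM-9747 libraries and 355 to 678 CPM in PSN1 vehicle libraries. PRSS2 averaged 24.7 CPM in PSN1 with AM-9747 and 380 ± 134 CPM in PSN1 with vehicle, and PRSS1 1.43 and 93.1 ± 11.5 CPM in the same order. These are levels, given without a test.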
